A study of Mus musculus with 41 samples.

Results

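The 8 genes described here carry the transforming growth factor beta (TGF-beta) signal: the ligand Tgfb1, its receptors Tgfbr1 and Tgfbr2, the signal-carrying Smads Smad2, Smad3 and Smad4, and the inhibitors Smad7 and Skil. They were taken by symbol from the 24015 genes of the table, and all 8 passed the filter on low values in every fit and had reads in each of the 41 libraries. RNA came from microglia, the resident macrophages of the brain, sorted from mouse cerebellum as cells positive for both CD11b and Tmem119. NPC mice were of the strain BALB/cNctr-Npc1m1N/J, whose Npc1 mutation models Niemann-Pick type C disease, a lysosomal storage disorder in which cholesterol stays in lysosomes. Untreated NPC mice and WT mice of the balb/c strain were taken aged 1, 3, 6 and 9 weeks; each such group has 4 libraries, but NPC at 9 weeks has 3. Further NPC mice of 9 weeks were given PLX5622 (5 libraries), a Csf1r inhibitor that kills microglia, or were labelled Control (5 libraries). Both of those arms carry the mutation, the arm has no WT mice, and the labels give neither the drug's dose nor what the Control mice received. They also do not give when the drug was started, so whether the sorted cells had survived it is not known. Mice were the replicates, per the series' design text.

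TGF-beta is secreted in a latent form and becomes active at the cell surface, where integrins containing the Itgav chain release it. The active ligand binds Tgfbr2, which recruits and phosphorylates Tgfbr1. Tgfbr1 phosphorylates Smad2 and Smad3, and these enter the nucleus with Smad4. Smad7 blocks the receptor complex, Skil holds the Smads on DNA in a repressed state, and both genes are themselves known targets of the pathway. In mice, microglia that lose the ligand or Tgfbr2 lose much of the gene program that sets them apart from other macrophages.

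The libraries held 23.2 to 40.5 M reads (M, 1e+06 reads), and the 8 genes had 716 to 95223 reads each in a library, so counting error was small beside the spread between mice. Npc1 matched the labels in every library, at 291 to 787 normalized counts in the 25 NPC libraries and 2606 to 7386 in the 16 WT libraries. NPC 3w replicate C stood apart from its group, with a median deviation of 0.648 on the log2 scale against at most 0.211 in any other library, and results that rest on it are given without it as well. The sorted cells expressed microglia genes at high level in every group, with Csf1r averaging 412350.5 to 719924 normalized counts and Itgam, which encodes CD11b, 26436 to 63446. Tmem119 transcript averaged 126093 ± 5534 normalized counts in NPC and 272128 ± 21031 in WT libraries at 9 weeks, so RNA of the marker used in the sort differed between the genotypes. The protein on which the sort relied was not measured here. Because RNA was pooled over the cells of a library, fewer cells expressing a gene and less RNA per cell cannot be told apart.

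Set on a common scale by transcript length, Tgfbr1 was the most abundant of the 8 genes. In WT libraries at 9 weeks its level was 8709 normalized counts per kilobase of merged exons, followed by Tgfb1 at 3867 and Tgfbr2 at 2677 on the same scale. Skil was at 1013, Smad4 at 889.5, Smad3 at 609.9, Smad7 at 589.8 and Smad2 at 267.4 normalized counts per kilobase. Of these neighbours, Skil and Smad4, and Smad3 and Smad7, lay within 1 SD of each other (SD, n = 4: Skil 195, Smad4 259, Smad3 72.6, Smad7 74.4 per kilobase). Both receptors and the ligand were therefore read at higher level per length than the Smads. All other values here are normalized counts per gene, which were compared between groups and not between genes.

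The 250 bases before the annotated start were read for the receptor pair, whose transcripts both rose after the first week, and for Smad3, the gene with the lowest adjusted p between NPC and WT libraries at 3 weeks. Sequences are from RefSeq (GRCm38.p6), and capitals mark matches on either strand to CAGAC, a core bound by Smad3 and Smad4, or to GGCGC, a core bound by several Smads. Tgfbr1 lies at chr4:47352972-47353221 on the plus strand, Tgfbr2 at chr9:116175364-116175613 on the minus strand and Smad3 at chr9:63757995-63758244 on the minus strand.
Tgfbr1: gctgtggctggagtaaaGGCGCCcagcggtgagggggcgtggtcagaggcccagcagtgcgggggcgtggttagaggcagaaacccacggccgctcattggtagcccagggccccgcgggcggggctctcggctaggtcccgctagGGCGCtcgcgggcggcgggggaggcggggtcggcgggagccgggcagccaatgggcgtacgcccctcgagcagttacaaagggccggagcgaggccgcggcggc
Tgfbr2: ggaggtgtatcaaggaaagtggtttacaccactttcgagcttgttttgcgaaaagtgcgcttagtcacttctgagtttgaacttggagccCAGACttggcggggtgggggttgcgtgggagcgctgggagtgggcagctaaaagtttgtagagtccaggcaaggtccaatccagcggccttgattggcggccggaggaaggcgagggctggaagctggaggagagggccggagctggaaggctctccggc
Smad3: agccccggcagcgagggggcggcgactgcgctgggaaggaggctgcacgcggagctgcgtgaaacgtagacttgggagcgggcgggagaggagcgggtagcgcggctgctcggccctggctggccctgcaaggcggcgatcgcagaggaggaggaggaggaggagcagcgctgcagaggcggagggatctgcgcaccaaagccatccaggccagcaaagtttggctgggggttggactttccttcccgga
Tgfbr1 held 3 matches to GGCGC, a pair of them overlapping as reverse complements, and none to CAGAC. Tgfbr2 held 1 CAGAC, whose first base lies 160 bases before the start, and Smad3 held neither motif. The corresponding window of Tgfb1 (chr7:25686752-25687001, plus strand) held 1 GGCGC. The windows were rich in G and C, at 74.8% for Tgfbr1, 58.4% for Tgfbr2, 69.2% for Smad3 and 75.2% for Tgfb1. CAGAC was found in 42.1% and GGCGC in 26.7% of the 19827 promoter windows of this length, and the palindrome GTCTAGAC, in 0.161% of them, was in none of these 4.

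The comparison of ages within each genotype asks how the pathway's transcripts change as microglia mature. Between 1 and 3 weeks 5 of the 8 genes rose in NPC and all 8 in WT microglia, and none passed the threshold between 3 and 9 weeks. In WT mice 8 of 8 genes rose, where 15.7% of the 14046 genes tested rose and 18.4% fell (limma, Benjamini-Hochberg adjusted p under 0.05 over all genes tested). In NPC mice 5 of 8 rose, where 12.2% of genes rose and 12.8% fell, and 6 rose without NPC 3w replicate C. In WT mice the libraries of 3 weeks lay wholly above those of 1 week for 7 of the 8 genes, as for 17.9% of all genes. The median log2 change of the 8 genes was 0.38 in NPC and 1.21 in WT mice, beside −0.07 in NPC and −0.01 in WT mice for all genes tested.

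The receptor Tgfbr1 rose most in both genotypes. It held 47941, 47173, 95233 and 44722 normalized counts in NPC libraries at 3 weeks (replicates A to D), against 24279.5, 15622, 21266 and 20189 at 1 week. WT libraries held 71093, 76438, 72495 and 55345 at 3 weeks, against 26877, 19527, 24042 and 16567 at 1 week. Every library of 3 weeks lay above every library of 1 week in its genotype, and NPC 3w replicate C stood far above the other libraries of its group. The fold was 2.77 in NPC mice (95% interval 2.12 to 3.63, adjusted p = 8.85e-07) and 3.20 in WT mice (2.44 to 4.19, adjusted p = 6.15e-08).

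Its partner Tgfbr2, which binds the ligand first, rose less. NPC libraries held 20609, 24156, 15166 and 19963 normalized counts at 3 weeks, against 16096, 14256, 15158 and 15762 at 1 week, and the groups overlapped through replicate C. WT libraries held 21857, 21813, 20304 and 22943 at 3 weeks, against 12463, 13862, 15412 and 11262 at 1 week, without overlap. Its fold was 1.29 in NPC mice (95% interval 1.09 to 1.53, adjusted p = 0.0256) and 1.65 in WT mice (1.39 to 1.96, adjusted p = 2.79e-05). The NPC call was lost without NPC 1w replicate B (adjusted p = 0.0739) or C (0.0536), or NPC 3w replicate A (0.0514) or B (0.118), and when libraries were rescaled to the same total (0.415) or quantile normalized (0.281), and in a fit limited to the groups compared (0.186). The ligand Tgfb1 held 7719, 5398, 5257 and 7179 normalized counts in NPC libraries at 3 weeks, against 4973, 5513, 6552 and 6315 at 1 week, a log2 change of 0.12 ± 0.16 (SE, adjusted p = 0.637) that turned to −0.10 (adjusted p = 0.737) when libraries were rescaled to the same total. In WT libraries it held 9542, 9225, 8645 and 6867 at 3 weeks, against 5371, 5497, 6685 and 7786 at 1 week. Only WT 3w replicate D reached into the range of the WT 1w libraries, and the log2 change was 0.44 ± 0.16 (SE, adjusted p = 0.036). That call was lost without WT 1w replicate A (adjusted p = 0.113) or B (0.105), or WT 3w replicate A (0.107), B (0.0905) or C (0.069), and under both other scalings (0.181 and 0.147).

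Among the Smads that carry the signal, Smad3 and Smad4 passed the threshold in WT mice and not in NPC mice. Smad3 held 2469, 2132, 1136 and 2452 normalized counts in NPC libraries at 3 weeks, against 1409, 1461, 2115 and 1800.3 at 1 week. WT libraries held 3571, 3589.8, 3424 and 2504 at 3 weeks, against 1191, 1495, 1854 and 1189.8 at 1 week. Replicate C was the lowest of all 8 NPC libraries, while the WT ages did not overlap. The log2 change of Smad3 was 0.23 ± 0.19 in NPC mice (SE, adjusted p = 0.425) and 1.20 ± 0.19 in WT mice (SE, adjusted p = 1.96e-05). Without NPC 3w replicate C the NPC change was 0.49 and passed the threshold (adjusted p = 0.0233). The test of the difference between the genotypes' changes gave -0.97 ± 0.28 for Smad3 (SE, adjusted p = 0.0826).

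Smad4, the partner shared by all activated Smads, held 3540.5, 3654, 2756 and 3852 normalized counts in NPC libraries at 3 weeks, against 2585, 2173, 2756 and 2934 at 1 week. In WT libraries it held 4444, 4239, 4069.5 and 3806 at 3 weeks, against 2225, 926, 2122 and 1819 at 1 week. The WT ages were far apart, with replicate B the lowest at 1 week, and the NPC ages overlapped at NPC 3w replicate C. The log2 change was 0.40 ± 0.31 in NPC mice (SE, adjusted p = 0.371) and 1.30 ± 0.31 in WT mice (SE, adjusted p = 0.00168). Smad2, the other receptor-activated Smad, changed little in size, by 0.28 ± 0.10 in NPC mice (adjusted p = 0.0364) and 0.40 ± 0.10 in WT mice (adjusted p = 0.00253) on the log2 scale (SE). Its means were 2404 ± 214 at 3 weeks and 1984 ± 278 normalized counts at 1 week in NPC libraries, and 2429 ± 84.9 and 1849 ± 158 in WT libraries of 3 weeks and 1 week (SD, n = 4 each). The NPC call for Smad2 was lost without NPC 1w replicate C (adjusted p = 0.102) or D (0.159), or NPC 3w replicate B (0.102) or D (0.084), after rescaling to the same total (0.582), in a fit limited to the groups compared (0.28) and with edgeR (0.0603).

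Both inhibitors rose in both genotypes. Skil held 6158, 5327, 7674 and 5550.4 normalized counts in NPC libraries at 3 weeks, against 3140.2, 2392, 3204 and 3403 at 1 week. WT libraries held 7669.7, 6925, 7676 and 5811 at 3 weeks, against 3799.6, 2724, 3623 and 2134 at 1 week. The ages did not overlap in either genotype, and the fold was 2.03 in NPC mice (95% interval 1.58 to 2.62, adjusted p = 7.66e-05) and 2.33 in WT mice (1.81 to 3.00, adjusted p = 4.36e-06). Smad7 held 2072, 1396, 1800.5 and 1895 normalized counts in NPC libraries at 3 weeks, against 918, 953, 1311 and 1127 at 1 week. In WT libraries it held 3416, 3431, 3073 and 2071 at 3 weeks, against 987, 790.4, 1318 and 1267 at 1 week. Again the ages did not overlap, although WT 3w replicate D lay well below its group, and the fold was 1.66 in NPC mice (1.16 to 2.38, adjusted p = 0.0335) and 2.75 in WT mice (1.92 to 3.94, adjusted p = 4.92e-05). The NPC call for Smad7 was lost without NPC 1w replicate A (adjusted p = 0.0831), B (0.0838) or D (0.0537), or NPC 3w replicate A (0.0748) or D (0.0655), and after rescaling to the same total (0.167).

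The rise from 1 to 3 weeks was not shown to differ between the genotypes for any of the 8 genes. The differences in log2 change, NPC minus WT, ran from -0.97 for Smad3 and -0.90 for Smad4 to -0.11 for Smad2, and 0 of 8 passed limma's threshold, which 1.06% of all genes did. Without NPC 3w replicate A the difference for Smad3 was −1.09 and passed it (adjusted p = 0.0341). Smad3 was lowest of its group in NPC 3w replicate C. Without that library its change in NPC mice was 0.49, closer to the 1.20 of WT mice than with it (0.23). All 8 differences were negative, 3 of them at an unadjusted p under 0.05, and edgeR also called 0. Between 3 and 9 weeks 0 of 8 genes passed limma's threshold in either genotype, where 4.41% of all genes did in NPC and 0.477% in WT mice. At an unadjusted p under 0.05 there was 1 gene in NPC and 0 in WT mice, and edgeR called 0 in both. The gene was Tgfbr1, with a log2 change from 3 to 9 weeks of -0.46 ± 0.21 in NPC mice (SE, adjusted p = 0.197), and −0.20 (adjusted p = 0.646) without NPC 3w replicate C.

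Markers of other cell types also moved with age. The summed level of 8 border-associated macrophage markers was 1078 to 1559.9 normalized counts at 3 weeks and 7514 to 8485 at 1 week in NPC libraries, and 779.9 to 949 at 3 weeks and 4700.4 to 9423 at 1 week in WT libraries. The summed level of 13 astrocyte and Bergmann glia markers moved the other way. It was 9528 to 11585 at 3 weeks and 3049 to 4535 at 1 week in NPC libraries, and 9565 to 12196 at 3 weeks and 2794 to 4702 at 1 week in WT libraries. Gene by gene, 2 of the 13 rose and 0 fell past the threshold in each genotype, where 12.2% of all genes rose in NPC and 15.7% in WT mice. Of the 8 macrophage markers 4 fell in NPC and 5 in WT mice, and 0 rose, where 12.8% and 18.4% of all genes fell. Of 12 oligodendrocyte markers 4 fell and 1 rose in NPC mice, and 6 fell and 0 rose in WT mice. Their sums overlapped between the ages. Of 11 tested neuron markers 2 fell in NPC and 3 in WT mice, and 0 rose. Sums of 13 neuron markers were 155 to 179 at 3 weeks and 268 to 946 at 1 week in NPC libraries. In WT libraries they were 62.0 to 143 at 3 weeks and 382 to 527.5 at 1 week. No macrophage, astrocyte or oligodendrocyte marker was at 0 in all libraries of these groups, but 1 neuron marker was, in NPC libraries of 3 weeks. These sums are small beside those of 8 microglia markers (at least 872928 in every library of these groups), and their part in the change with age was not tested.

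**Figure D1:**
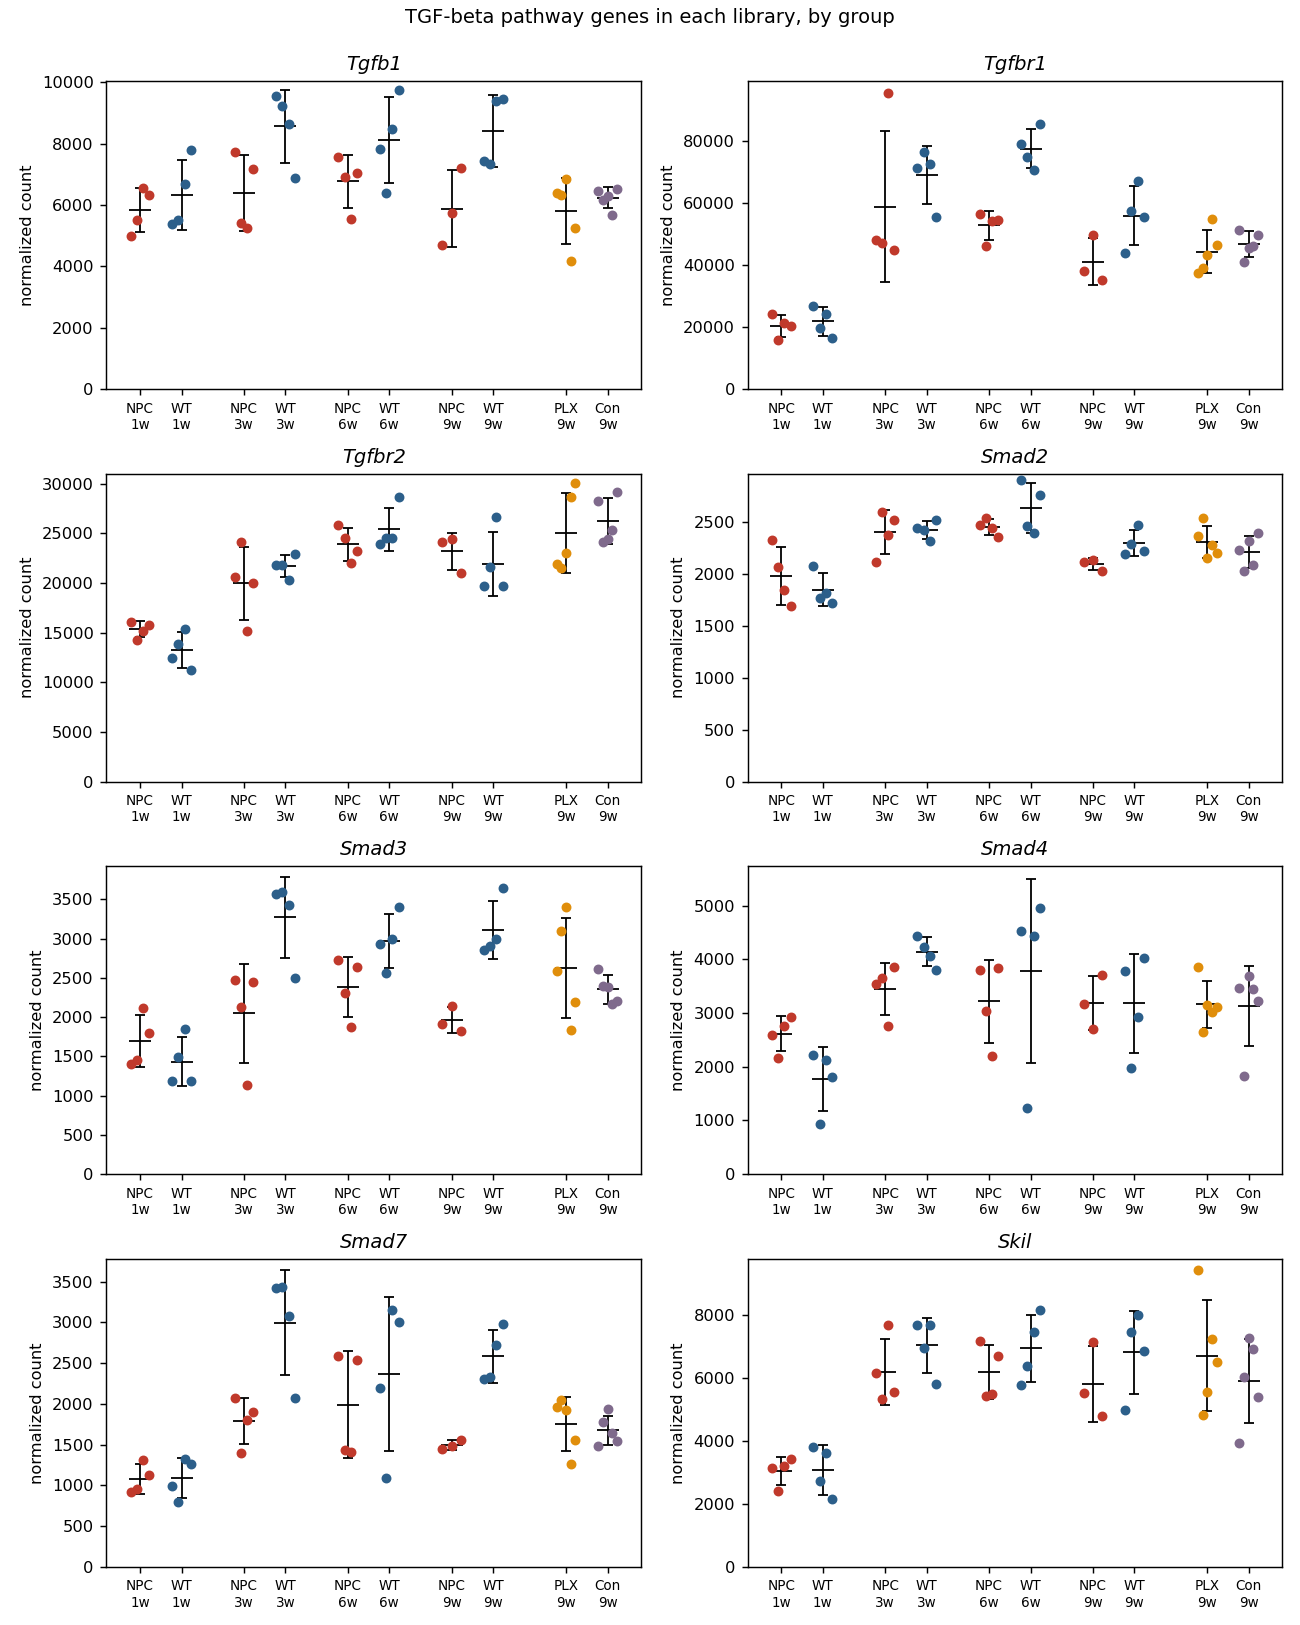
Normalized counts (linear axis from 0) of the 8 genes in every library, with groups on the x axis by age and genotype, then the PLX5622 arm (PLX) and its Control arm (Con). Points are libraries in replicate order and bars are the group mean ± SD (n = 4, with 3 for NPC at 9 weeks and 5 for PLX and Con): Tgfbr1, Smad7 and Skil step up after 1 week, and 1 NPC library of 3 weeks stands far above its group in Tgfbr1.

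**Figure D2:**
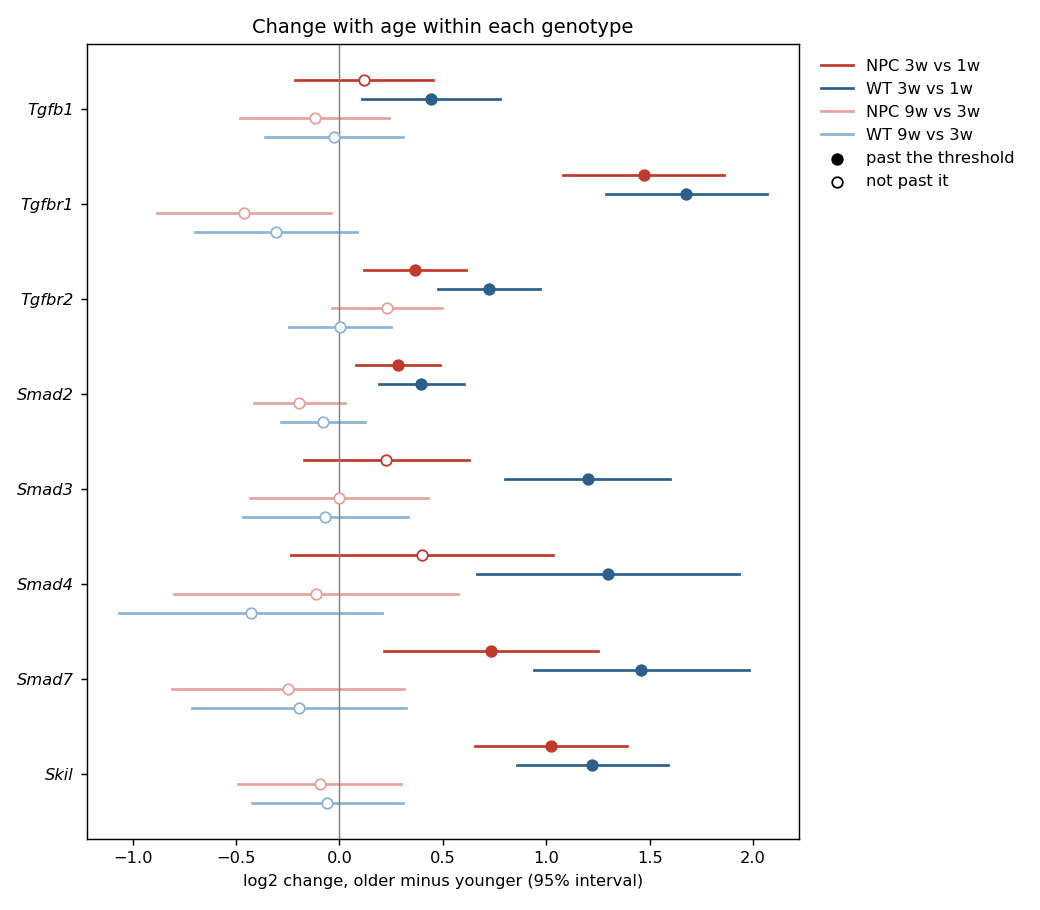
Log2 change with age (older minus younger, x axis) of each gene in NPC and WT mice, with 95% intervals; filled points passed the adjusted p threshold. All 8 WT changes from 1 to 3 weeks are filled and lie to the right of 0, 5 NPC changes are filled, and no change from 3 to 9 weeks is filled.

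The comparison of NPC with WT microglia at each age asks when the pathway's transcripts part with genotype. At 1 week none of the 8 genes passed the threshold. From 3 weeks on the genes that passed the threshold were all lower in NPC microglia: Tgfb1, Smad3 and Smad7 at 3 weeks, Tgfbr1 at 6 weeks, and Tgfb1, Smad3 and Smad7 again at 9 weeks. The differences were moderate, with NPC levels at 0.582 to 0.741 times those of WT, and most calls lay near the threshold. The calls of Tgfb1, Smad3 and Smad7 at 3 weeks were all lost without NPC 3w replicate C, where Tgfbr1 passed instead. They were also lost in a fit limited to the libraries of 3 weeks. Tgfbr2, Smad2, Smad4 and Skil passed it at no age.

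At 1 week 0 of 8 genes passed limma's threshold, where 1.45% of all genes did, with 0 at an unadjusted p under 0.05 and 0 by edgeR. The largest difference was for Smad4, which averaged 2612 ± 326 normalized counts in NPC and 1773 ± 590.3 in WT libraries (SD, n = 4 each; log2 0.63, adjusted p = 0.436). WT 1w replicate B, at 926 normalized counts, was the lowest library in Smad4 of all 41.

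At 3 weeks 3 of 8 genes were lower and 0 higher in NPC microglia, where 12.6% of all genes were lower and 14.3% higher. Without NPC 3w replicate C the count was 1 of 8, and that gene was Tgfbr1. All 8 estimates were negative, with a median of −0.28 beside −0.04 over all genes tested. Smad3, whose 3-week values in each library are given above, did not overlap between the genotypes, although WT 3w replicate D at 2504 normalized counts lay close to NPC 3w replicate A at 2469; NPC libraries lay wholly below WT for 10.9% of all genes. Its log2 difference was -0.73 ± 0.19 (SE, adjusted p = 0.00804), and −0.47 (adjusted p = 0.0504) without NPC 3w replicate C. Smad7 averaged 1791 ± 286 in NPC and 2998 ± 639.5 normalized counts in WT libraries (SD, n = 4 each), touching only at NPC replicate A (2072) and WT replicate D (2071). Its log2 difference was -0.73 ± 0.25 (SE, adjusted p = 0.034), and the call was lost without WT 3w replicate A (adjusted p = 0.0957), B (0.087) or C (0.0714), or NPC 3w replicate B (0.0921) or C (0.0691). Tgfb1 averaged 6388 ± 1246 in NPC and 8570.0 ± 1194 normalized counts in WT libraries (SD, n = 4 each) and overlapped between the genotypes. Its log2 difference of -0.43 ± 0.16 (SE, adjusted p = 0.0481) was lost without any of 20 of the 31 libraries of the fit: among the groups compared, WT 3w replicate A (adjusted p = 0.132), B (0.109) or C (0.0908) and NPC 3w replicate B (0.125) or C (0.164), and 15 libraries of other groups, each at 0.0502 to 0.0539. With edgeR it was 0.0534, without the filter on low values 0.0633, and in a fit limited to the libraries of 3 weeks the adjusted p was 0.154 for Tgfb1, 0.124 for Smad3 and 0.0668 for Smad7. Tgfbr1 averaged 58767 ± 24349 in NPC and 68843 ± 9279 normalized counts in WT libraries (log2 -0.29, adjusted p = 0.248), and without the high NPC 3w replicate C it was lower in NPC libraries by 0.55 on the log2 scale and passed the threshold (adjusted p = 0.0152), as it did with quantile normalization (−0.59, adjusted p = 0.017).

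Markers of other cells differed between the genotypes at this age too. The 8 border-associated macrophage markers summed to 1078 to 1559.9 normalized counts in NPC and 779.9 to 949 in WT libraries of 3 weeks, without overlap. Gene by gene they were split, with 2 of the 8 past the threshold as higher, 1 as lower and a median log2 difference of -0.123. Gfap, a filament protein of astrocytes, held 173.5, 386.4, 178.1 and 170.8 normalized counts in NPC libraries, against 34.1, 53.7, 39.5 and 49.9 in WT libraries, while the sums of the 13 astrocyte markers overlapped. The 8 microglia markers summed to 1391960 to 1686264 in NPC and 1746378 to 1816315 in WT libraries. Of these 8, 4 were lower and 1 higher in NPC libraries past the threshold, and of the 13 astrocyte markers 3 were higher and 1 lower. Of all genes 12.6% were lower and 14.3% higher. No marker of these 3 lists was at 0 in all libraries of either group, and their part in the 3-week differences was not tested.

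At 6 weeks the receptor Tgfbr1 was the only gene of the 8 past the threshold, where 6.50% of all genes were lower and 8.76% higher in NPC microglia. It held 56217, 45978, 54249.9 and 54408 normalized counts in NPC libraries, against 78896, 74726, 70521 and 85254 in WT libraries. Every NPC library lay below every WT library, as for 9.53% of all genes, and the log2 difference was -0.55 ± 0.19 (SE, adjusted p = 0.047). The call was lost without any one of the 8 libraries compared, NPC 6w replicates A (adjusted p = 0.0575), B (0.141), C (0.0815) and D (0.0596) and WT 6w replicates A (0.0911), B (0.0706), C (0.0569) and D (0.118), and without 10 libraries of other groups, each at 0.0512 to 0.0538. It was also lost without the filter on low values (0.0624) and with quantile normalization (0.0504). NPC 6w replicates B and C had the highest sums of astrocyte markers (16084 and 15613 normalized counts, with 10199 to 11959 in the other NPC libraries of 6 weeks and 10394 to 11471 in WT) and of oligodendrocyte markers (19838 and 17169). Without both of them the Tgfbr1 difference was −0.48 (adjusted p = 0.30). Smad4 did not pass the threshold (log2 -0.08, adjusted p = 0.901), with WT 6w replicate B at 1232 normalized counts and the other WT libraries of 6 weeks at 4443 to 4952. With replicates B of WT 1w, 6w and 9w left out, the Smad4 difference was -0.56 and passed it (adjusted p = 0.0262).

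At 9 weeks the ligand, Smad3 and Smad7 were lower in NPC microglia, 3 of 8 genes where 7.77% of all genes were lower and 11.2% higher. Tgfb1 held 4704, 5755 and 7198 normalized counts in NPC libraries, against 7439.8, 7340.3, 9401 and 9458 in WT libraries. Smad3 held 1909, 2144 and 1823 in NPC and 2859.6, 2908, 2998 and 3652 in WT libraries. Smad7 held 1439.8, 1488 and 1553 in NPC and 2305, 2327, 2719.5 and 2979 in WT libraries. In all 3 genes every NPC library lay below every WT library, closely so for Tgfb1, where NPC replicate C nearly reached WT replicate B. The log2 differences were -0.53 ± 0.18 for Tgfb1 (adjusted p = 0.0344), -0.66 ± 0.21 for Smad3 (adjusted p = 0.0261) and -0.78 ± 0.27 for Smad7 (adjusted p = 0.0438; all SE, n = 3 NPC and 4 WT, limma). Smad2 also separated the genotypes, at 2118, 2137 and 2028 normalized counts in NPC and 2199, 2293, 2474 and 2227 in WT libraries, but its difference of -0.13 ± 0.11 (SE) did not pass the threshold (adjusted p = 0.435). NPC libraries lay wholly below WT libraries for 17.5% of all genes tested, and wholly above them for 20.8%.

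Each of the 9-week calls was lost when single libraries were left out. Tgfb1 was past the threshold no longer without NPC 9w replicate A (adjusted p = 0.24) or B (0.0876), or WT 9w replicate C (0.0946) or D (0.0984). Smad3 lost its call without NPC 9w replicate A (0.0875) or C (0.0914), or WT 9w replicate D (0.0829). Smad7 lost it without any one of the 7 libraries, NPC 9w replicates A (0.129), B (0.103) and C (0.0853) and WT 9w replicates A (0.0544), B (0.0556), C (0.0871) and D (0.109), and without the filter on low values (0.0587). Tgfbr1 averaged 40924 ± 7574 in NPC and 55861 ± 9442 normalized counts in WT libraries at 9 weeks (SD; log2 -0.45, adjusted p = 0.133) and passed the threshold when NPC 3w replicate C was left out of the fit (adjusted p = 0.0325), when libraries were rescaled to the same total (0.0468), and in a fit limited to the libraries of 9 weeks (0.0265).

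The summed markers of astrocytes and oligodendrocytes were higher in NPC libraries at 9 weeks, and those of microglia lower. The 13 astrocyte markers summed to 9712 to 13089.6 normalized counts in NPC and 8765 to 9612 in WT libraries, with Gfap at 2280.4, 1157.3 and 801 in NPC libraries, against 73.6, 62.8, 75.4 and 80.3 in WT libraries. The 12 oligodendrocyte markers summed to 8425 to 17586 in NPC and 6737 to 7119 in WT libraries. Neither range overlapped between the genotypes; 0 of the astrocyte markers, and 1 of the oligodendrocyte markers in each genotype, were at 0 in all libraries. The 8 microglia markers summed to 996893 to 1267004 in NPC and 1559849.9 to 1814399.8 in WT libraries. Gene by gene, 2 of 13 astrocyte markers and 1 of 12 oligodendrocyte markers passed the threshold as higher, and 0 of either as lower. Of 8 microglia markers 4 were lower and 0 higher, and of 8 border-associated macrophage markers 2 were higher and 1 lower. Of all genes 11.2% were higher and 7.77% lower. The part of these markers' cells in the 9-week differences was not tested.

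The genotype difference did not change detectably from 3 to 9 weeks. The change in the difference ran from -0.15 for Tgfbr1 to 0.32 for Smad4 on the log2 scale, and 0 of 8 genes passed limma's threshold, which 0.456% of all genes did; 0 had an unadjusted p under 0.05, and edgeR called 0.

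**Figure D3:**
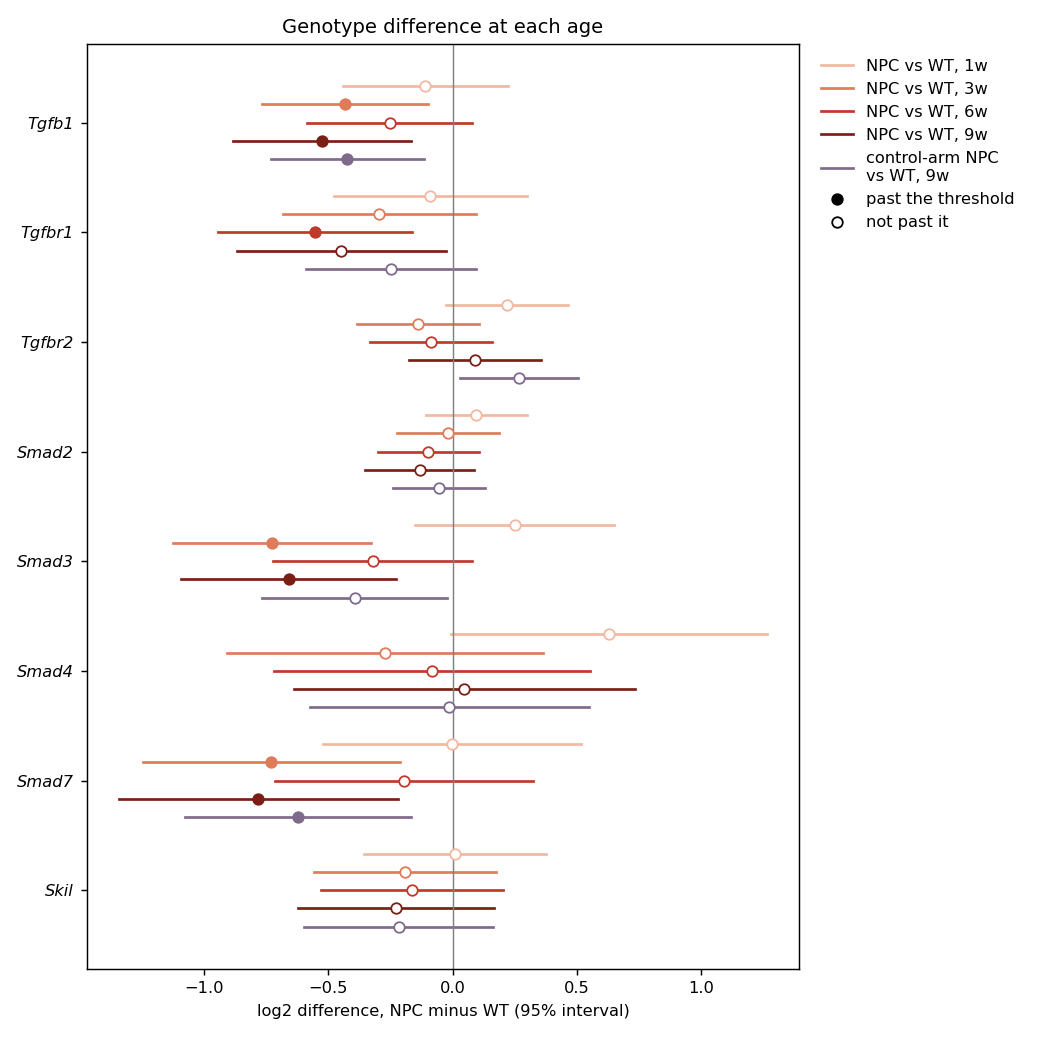
Log2 difference between NPC and WT libraries (NPC minus WT, x axis) of each gene at 1, 3, 6 and 9 weeks and between the Control-arm NPC mice and WT mice at 9 weeks, with 95% intervals; filled points passed the adjusted p threshold. The filled points, of Tgfb1, Tgfbr1, Smad3 and Smad7, all lie to the left of 0, while Tgfbr2, Smad2, Smad4 and Skil have none.

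A second set of NPC mice at 9 weeks was read from the Control arm, in a comparison with WT mice chosen after seeing the data, which shares its 4 WT libraries with the comparison above. Here 2 of 8 genes were lower and 0 higher in NPC microglia, where 10.4% of all genes were lower and 11.6% higher. Tgfb1 held 6472, 6170.5, 6310.0, 5673 and 6532 normalized counts in Control-arm libraries, all below the WT libraries of 9 weeks, with a log2 difference of -0.42 ± 0.15 (SE, adjusted p = 0.0411) beside -0.53 in the untreated NPC mice. Smad7 held 1482, 1776, 1931, 1639 and 1549.5 in Control-arm libraries, again all below WT, with -0.62 ± 0.22 (SE, adjusted p = 0.0416) beside -0.78. Smad3 held 2619.6, 2397, 2390.5, 2165 and 2204, also below every WT library, but its difference of -0.39 ± 0.18 (SE, beside -0.66) did not pass the threshold (adjusted p = 0.125) unless NPC 3w replicate C was left out (0.0487) or the fit was limited to these groups (0.00677). Control-arm libraries lay wholly below WT libraries for 13.6% of all genes. The call for Tgfb1 was lost without WT 9w replicate C (adjusted p = 0.128) or D (0.136) or Control replicate 1 (0.0555), 2 (0.0655), 3 (0.058) or 4 (0.0856), without the filter (0.053) and with quantile normalization (0.0559). The call for Smad7 was lost without WT 9w replicate A (0.0517), B (0.0535), C (0.0919) or D (0.125) or Control replicate 1 (0.0891), 2 (0.0535), 4 (0.0643) or 5 (0.0749), and without the filter (0.0573). Tgfbr2 was 0.27 higher on the log2 scale (adjusted p = 0.101), and past the threshold without WT 9w replicate C (0.0327).

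Between Control-arm and untreated NPC mice of 9 weeks none of the 8 genes passed the threshold. Limma called 0 of 8 and 0 of all 14312 genes tested (0.00%), with 0 of 8 and 598 of all genes at an unadjusted p under 0.05, and edgeR called 0 of both. Smad3 was nonetheless higher in every Control-arm library than in every untreated one (2355 ± 182 against 1958 ± 166 normalized counts, SD, n = 5 and 3; log2 0.27, 95% interval -0.14 to 0.67), as 1.59% of genes were.

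PLX5622, which removes microglia that depend on Csf1r, was compared with Control in NPC mice to see how the sorted cells differed. None of the 8 genes passed limma's threshold, which 0.947% of the 12877 genes tested did, with 0 at an unadjusted p under 0.05 and 0 by edgeR. Tgfb1 held 6389.5, 6313, 6839, 4166 and 5261 normalized counts in PLX5622 libraries (replicates 1 to 5), against 6472, 6170.5, 6310.0, 5673 and 6532 in Control libraries, with PLX5622 replicates 4 and 5 below every Control library. Its log2 difference was -0.13 (95% interval -0.41 to 0.15, adjusted p = 0.701). Tgfbr1 held 37459, 38832, 43304, 54880.3 and 46498 in PLX5622 libraries, against 51373, 40764, 45476, 46137 and 49496 in Control libraries, and the groups overlapped widely (-0.09, -0.34 to 0.16, adjusted p = 0.779). Smad3 spread more in PLX5622 libraries, at 2588, 3094, 3402, 1842 and 2192, than in Control libraries, at 2619.6, 2397, 2390.5, 2165 and 2204 (0.12, -0.21 to 0.46, adjusted p = 0.762). The widest interval was that of Skil, at 0.18 (-0.24 to 0.60), with 9405, 4814, 5559, 7235 and 6490.4 normalized counts in PLX5622 and 3913, 6017, 7255, 6909 and 5387 in Control libraries. For the other 4 genes the log2 differences lay between -0.08 for Tgfbr2 and 0.06 for Smad2. Markers of monocytes and neutrophils, 11 genes in the table, summed to 716 to 107984 normalized counts in PLX5622 and 318 to 6098 in Control libraries, highest in PLX5622 replicate 3, none of them at 0 in all libraries of either group. Leaving out that replicate, or any other of the 10, gave 0 called genes among the 8.

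Over the 10 groups the order of the group means differed by gene. Tgfb1 was highest in the WT groups of 3 weeks (8570.0 ± 1194 normalized counts, SD), 9 weeks (8409.8 ± 1178, SD) and 6 weeks (8114 ± 1401, SD), and lowest in PLX5622-treated NPC mice (5794 ± 1078, SD), but the libraries of each group overlapped with those of the next in rank all along the order. Smad3 was likewise highest in the WT groups of 3, 9 and 6 weeks and lowest at 1 week, with overlap at each step. Tgfbr1, Smad7 and Skil had a single step without overlap, between the untreated NPC group of 9 weeks and the WT group of 1 week. Tgfbr2 was the only gene of the 8 with its highest mean in an NPC group, 26260.4 ± 2303 normalized counts in Control mice (SD, n = 5), just above WT at 6 weeks (25396 ± 2163, SD, n = 4) with overlap. Smad2 varied least in level, between 1849 ± 158 at 1 week and 2634 ± 242 at 6 weeks in WT libraries (SD, n = 4 each). Smad4 was highest in WT mice of 3 weeks (4139.7 ± 269.9, SD) and lowest in WT mice of 1 week (1773 ± 590.3, SD).

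The genes with the most similar pattern over the 41 libraries were found by Pearson's r of log2 levels among the 10009 genes that averaged 100 normalized counts or more. Libraries of a group share age and genotype, so r describes these data only. For Tgfbr1 they were Tmx4 (r = 0.943), Rgmb (0.932) and Kbtbd2 (0.927), and for Tgfbr2 4933426M11Rik (0.912), Lrch3 (0.909) and Tlr13 (0.907). Tgfb1 was most like Wasf2 (0.858), Zbtb18 (0.843) and Smap2 (0.827). Smad3 was most like Dagla (0.882), Tob2 (0.873) and Ssfa2 (0.861), Smad2 like Samsn1 (0.824), Kbtbd2 (0.811) and Rgmb (0.802), and Smad4 like Dyrk1a (0.897), Sppl3 (0.878) and Hs6st1 (0.867). Smad7 was most like Msl2 (0.894) and Fbxo33 (0.865), and Skil like Sowahc (0.887), Gna13 (0.884) and Ppp1r3b (0.877).

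The rest of the pathway was read from lists of its ligands and activators, receptors, Smad regulators and targets. The counts below are read against the shares of all genes called between NPC and WT mice given above: 1.45% in either direction at 1 week, 12.6% lower and 14.3% higher at 3 weeks, 6.50% lower and 8.76% higher at 6 weeks, and 7.77% lower and 11.2% higher at 9 weeks. From 1 to 3 weeks 12.2% of all genes rose and 12.8% fell in NPC mice, and 15.7% rose and 18.4% fell in WT mice. A share near these is not a result about the list. List counts without single libraries were an alternative chosen after seeing the data.

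Among 11 tested type I and II receptors and co-receptors beyond Tgfbr1 and Tgfbr2, those called between NPC and WT mice were all lower in NPC microglia: 1 at 1 week, 4 at 3 weeks, 3 at 6 weeks and 2 at 9 weeks. Without NPC 3w replicate C 3 were lower at 3 weeks; 5 were lower at 6 weeks without NPC 6w replicate A, as without replicate B of the WT mice, and 4 at 9 weeks without NPC 6w replicate C. Eng (endoglin), a co-receptor for TGF-beta and BMP9, was lower at every age. It averaged 1643 ± 274 in NPC and 3047 ± 361 normalized counts in WT libraries at 1 week, 2191 ± 810.1 in NPC and 7338 ± 889 in WT libraries at 3 weeks, 2423 ± 493 in NPC and 6772 ± 720.3 in WT libraries at 6 weeks, and 1239.9 ± 236 in NPC and 6632 ± 867 in WT libraries at 9 weeks (SD, n = 4, with 3 for NPC at 9 weeks). The genotypes did not overlap at any age, and the log2 differences were -0.90, -1.83, -1.50 and -2.43 (adjusted p = 0.0201, 2.66e-07, 5.09e-06 and 4.02e-09). The call at 1 week was lost without WT 1w replicate A (adjusted p = 0.053), B (0.0605) or C (0.0699), or NPC 1w replicate B (0.0535) or D (0.115). Acvrl1 (ALK1), the type I receptor that works with endoglin, averaged 1685 ± 140.1 in NPC and 3799.9 ± 302 normalized counts in WT libraries at 9 weeks (log2 -1.17, adjusted p = 8.64e-07), and 2014 ± 250.3 in NPC and 3212 ± 347 at 6 weeks in WT (-0.68, adjusted p = 0.000758). Acvr2b, a type II receptor for activins, was lower in NPC libraries at 3 weeks, at 251 ± 85.7 in NPC and 664 ± 149 in WT (-1.45, adjusted p = 0.000753), as was Acvr2a, at 413 ± 28.9 in NPC and 763 ± 72.6 in WT (-0.88, adjusted p = 0.00775). Endothelial cells also express Eng and Acvrl1; 11 endothelial and pericyte markers summed to 1177 to 2255 normalized counts in NPC and 1429 to 1756 in WT libraries at 9 weeks, with none at 0 in all libraries of either group. With age, 6 of the 11 rose and 0 fell in WT mice from 1 to 3 weeks, and 1 rose (Acvrl1) and 0 fell in NPC mice, or 2 rose without NPC 3w replicate C.

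Of 15 tested ligands and activators other than Tgfb1, 3 were lower and 0 higher in NPC microglia at 3 weeks, 2 lower and 0 higher at 6 weeks, and 1 lower and 1 higher at 9 weeks, shares near those of all genes at 9 weeks. Without NPC 3w replicate C 3 were again lower at 3 weeks, and 3 were lower and 2 higher at 9 weeks. Without WT 6w replicate D 1 was lower at 6 weeks, and without WT 6w replicate B 3 were lower and 1 higher at 9 weeks. Itgav, the integrin chain that releases the active ligand, averaged 3149.8 ± 349.5 in NPC and 5855 ± 865 normalized counts in WT libraries at 3 weeks (SD, n = 4 each; log2 -0.89, adjusted p = 0.000978) and 2434 ± 577 in NPC and 5012 ± 1192 in WT at 9 weeks (-1.04, adjusted p = 0.000333). Mmp14, a membrane protease that can release latent TGF-beta, averaged 409 ± 180.1 in NPC and 1054 ± 229 in WT libraries at 6 weeks (-1.44, adjusted p = 0.00113). Ltbp3, a latent TGF-beta binding protein, averaged 236 ± 66.2 in NPC and 572 ± 85.7 at 3 weeks in WT libraries (-1.31, adjusted p = 0.000774). The gene higher at 9 weeks was the second ligand Tgfb2, at low level, 83.3 ± 40.7 in NPC and 14.9 ± 13.5 in WT libraries (2.70, adjusted p = 0.0156; lost without WT 9w replicate A, adjusted p = 0.068, or NPC 9w replicate A, 0.098), and 153 ± 146 in Control-arm NPC mice (3.19, adjusted p = 0.00071). Nrros, which holds latent TGF-beta on the microglial surface, passed no threshold between NPC and WT mice at any age (log2 −0.54, adjusted p = 0.0714 at 9 weeks). It fell from 1 to 3 weeks of age in WT mice, where it averaged 12937 ± 291 at 3 weeks, against 22010.5 ± 2567 at 1 week (-0.76, adjusted p = 0.00323).

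Among 22 tested Smad regulators and other Smads, 2 were higher and 2 lower in NPC microglia at 9 weeks, and 3 higher and 4 lower at 3 weeks. These shares (9.09% each way at 9 weeks, 13.6% higher and 18.2% lower at 3 weeks) lie near those of all genes. At 3 weeks 3 were higher and 2 lower without NPC 3w replicate C, where Ep300 (adjusted p = 0.109), Smurf2 (0.0795) and Fkbp1a (0.0794) lost their calls, and 3 higher and 8 lower without NPC 3w replicate A. Dab2, an endocytic adaptor that links TGF-beta receptors to Smad2 and Smad3, was higher in NPC libraries at each age. It averaged 7246 ± 797 in NPC and 4192 ± 1209 normalized counts in WT libraries at 1 week, and 3476 ± 528 in NPC and 409 ± 92.5 in WT libraries at 9 weeks, where the fold was 8.61 (adjusted p = 5.13e-11). The call at 1 week (0.84, adjusted p = 0.034) was lost without WT 1w replicate A (adjusted p = 0.224) or NPC 1w replicate A (0.0539), B (0.0529), C (0.0852) or D (0.143). The genotype difference of Dab2 was larger at 9 than at 3 weeks, by 1.73 ± 0.31 on the log2 scale (SE, adjusted p = 0.00514). Border-associated macrophages also express Dab2; their 8 markers summed to 695 to 1139 normalized counts in NPC and 561 to 915 in WT libraries at 9 weeks, with none at 0 in all libraries of either group, and their part in the Dab2 result was not tested. Wwp1, a ubiquitin ligase, was higher at 9 weeks (785 ± 55.1 in NPC and 456 ± 95.4 in WT; 0.81, adjusted p = 0.00382), and Tgif2, a repressor that binds Smads, was lower (229 ± 39.6 in NPC and 485 ± 69.7 in WT; -1.08, adjusted p = 6.17e-05). From 1 to 3 weeks 3 of the 22 rose and 2 fell in NPC mice, and 11 rose and 4 fell in WT mice. The NPC counts were 5 and 2 without NPC 3w replicate C, and 2 and 1 without NPC 1w replicate D. Tgif1, another Smad-binding repressor, rose 2.90-fold in NPC mice (adjusted p = 9.12e-10) and 2.73-fold in WT mice (adjusted p = 1.59e-09).

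Known targets of TGF-beta and BMP signalling moved in both directions. Of 16 tested, 1 was higher and 4 lower in NPC microglia at 3 weeks, 2 higher and 1 lower at 6 weeks, and 4 higher and 2 lower at 9 weeks. The gene higher at 3 weeks was Id3, whose call was lost without NPC 3w replicate C (log2 1.28, adjusted p = 0.0816), so that 0 were higher and 4 lower. Without WT 6w replicate D 1 was higher and 0 lower at 6 weeks. Id2 and Id3, inhibitors of DNA-binding transcription factors that BMP signals induce, were higher at 9 weeks. Id3 averaged 132 ± 53.8 in NPC and 24.1 ± 13.3 normalized counts in WT libraries (2.46, adjusted p = 0.00222), and Id2 averaged 2152 ± 584 in NPC and 923 ± 54.7 in WT libraries (1.18, adjusted p = 0.00199). Cdkn1a, the cell cycle inhibitor p21, was lower, at 621 ± 58.0 in NPC and 1542 ± 257 in WT libraries of 9 weeks (-1.30, adjusted p = 2.53e-06). From 1 to 3 weeks the targets also split, with 6 higher and 3 lower in NPC mice and 6 higher and 4 lower in WT mice; the NPC counts were 2 and 3 without NPC 1w replicate B. Klf10, a transcription factor induced by TGF-beta, fell in WT mice to 355 ± 61.5 normalized counts at 3 weeks, against 2825 ± 604 at 1 week. The log2 change of Klf10 from 1 to 3 weeks was -3.04 in NPC mice (adjusted p = 6.04e-10) and -2.98 in WT mice (adjusted p = 4.65e-10). In PLX5622-treated mice 1 of the 16 was higher and 0 lower. Bhlhe40, a transcription factor, averaged 622 ± 316 normalized counts in PLX5622 and 158 ± 22.9 in Control libraries (1.82, adjusted p = 0.0219); the call was lost without PLX5622 replicate 3 (0.0501) or Control replicate 2 (0.0556), 3 (0.0622), 4 (0.0597) or 5 (0.0718).

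Of 22 microglia identity genes known in mice to depend on or respond to TGF-beta, 11 were lower and 1 higher in NPC microglia at 9 weeks, with a median log2 difference of −0.52 beside 0.03 over all genes tested. At 1 week 1 was lower and 0 higher, at 3 weeks 10 were lower and 1 higher, and at 6 weeks 9 were lower and 2 higher. The 3-week count rests on NPC 3w replicate C, without which 4 were lower and 1 higher. At 1 week the count was 0 without WT 1w replicate A, B or C or NPC 1w replicate B, C or D, and 2 lower without NPC 1w replicate A. Olfml3, a secreted protein of microglia, averaged 27482 ± 3342 in NPC and 60654 ± 5362 normalized counts in WT libraries at 9 weeks (-1.14, adjusted p = 6.82e-07). Tmem119 belongs to this list and to the sort gate. From 1 to 3 weeks 13 of the 22 rose and 0 fell in NPC mice, and 14 rose and 1 fell in WT mice; in NPC mice 8 rose without NPC 1w replicate C or D or NPC 3w replicate D. In PLX5622-treated mice 1 of the 22 was lower and 0 higher: Fcrls, an Fc receptor-like protein of mouse microglia, averaged 8880.0 ± 3836 in PLX5622 and 20529 ± 3326 normalized counts in Control libraries (-1.30, adjusted p = 0.0291). The call was lost without PLX5622 replicate 2 (adjusted p = 0.0543), 3 (0.0639) or 4 (0.071) or Control replicate 2 (0.0818), 3 (0.0758), 4 (0.0815) or 5 (0.0987), and 3 of the 22 were lower without PLX5622 replicate 5 and 2 without Control replicate 1.

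**Figure D4:**
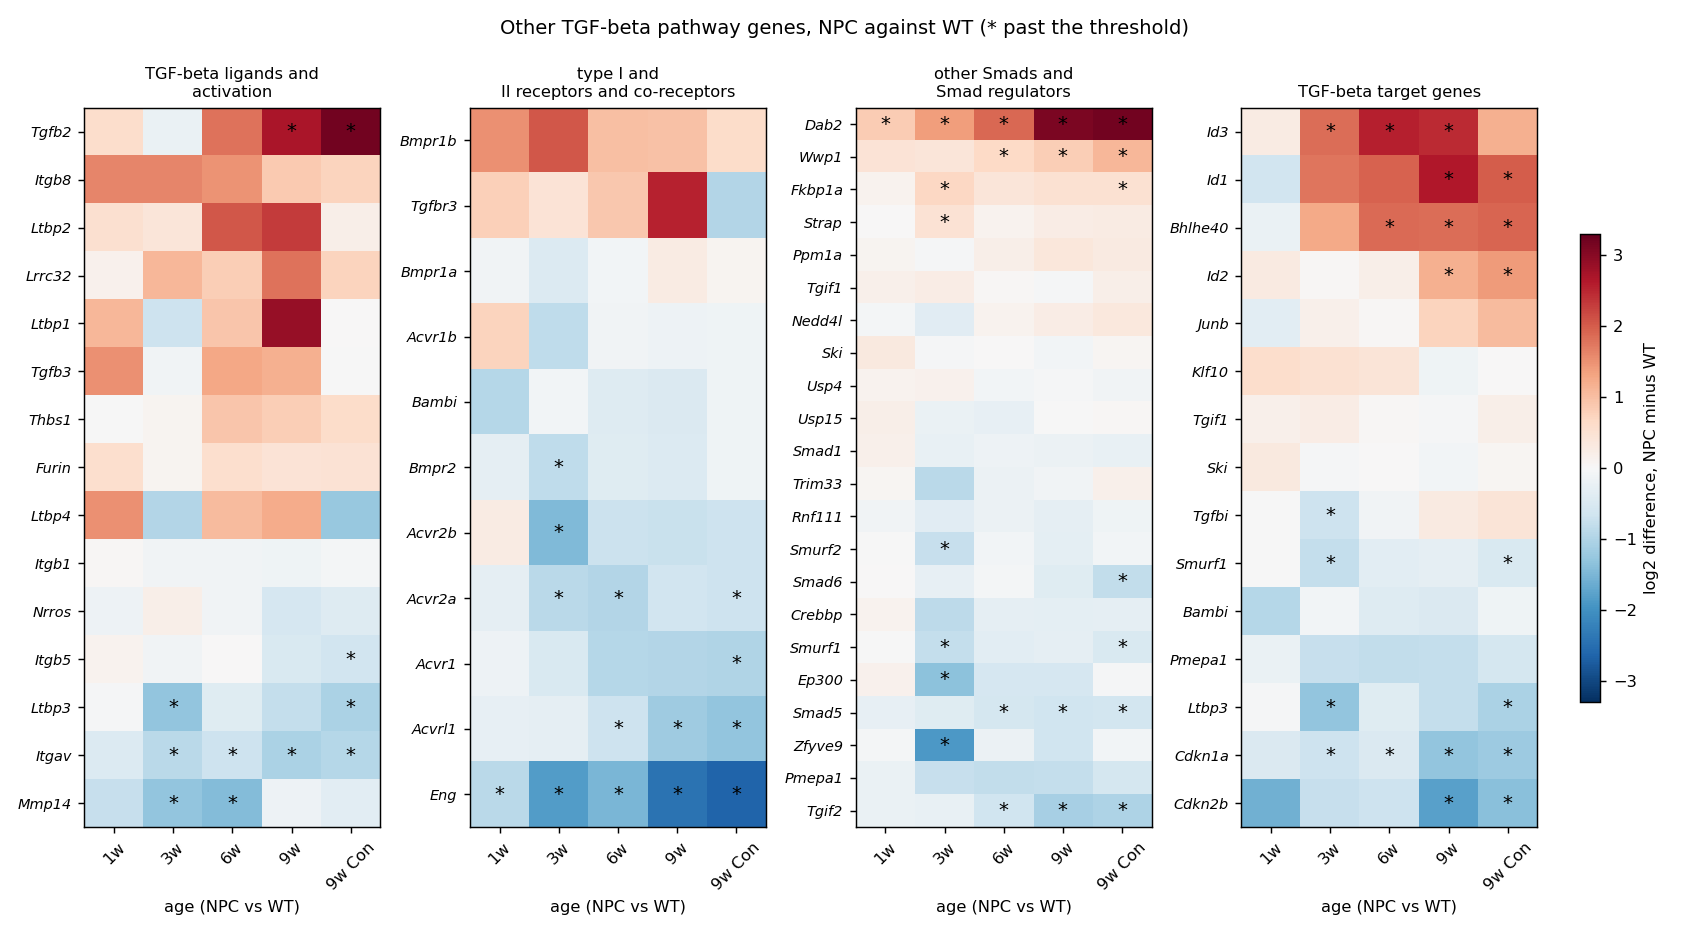
Log2 difference between NPC and WT libraries (colour, NPC minus WT) for genes tested in 4 pathway lists (rows) at 1, 3, 6 and 9 weeks and between Control-arm NPC and WT mice at 9 weeks (columns); an asterisk marks an adjusted p under 0.05. Eng is blue and Dab2 red with an asterisk in all columns, and most squares carry no asterisk.

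BMP and activin ligands and their antagonists were mostly too low to test, with 7 of 17 past the filter on low values. Of these 7, 3 were higher and 1 lower in NPC libraries at 9 weeks, and 1 higher and 0 lower without NPC 9w replicate A or C. Bmp7, a BMP ligand, averaged 59.9 ± 2.90 normalized counts in NPC and 2.72 ± 1.12 in WT libraries (adjusted p = 0.00781, limma). The other calls were Gdf15, a stress-induced ligand of the family (2.61, adjusted p = 0.0143, and 0.0829 without replicate A), Bmp6 (3.17, adjusted p = 0.0161, and 0.0783) and the protease Bmp1, which was lower (-1.53, adjusted p = 0.0216, and 0.0713). Summed astrocyte and oligodendrocyte markers were higher in NPC libraries of this age, as given above. The part of other cells' RNA in these calls, and in those of Tgfb2 and Id3, was not tested.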

How the data were processed

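The deposited table holds normalized counts per gene: the authors' signal is each library's counts divided by 1 factor, as the values themselves show, since 100% of them in the 41 libraries came out as whole reads when divided by the library's smallest step (tolerance 1e-06). Per the submitters' processing notes, FastQC 0.11.4, STAR 2.5.1b and DESeq2 were used, with mm9; the annotation and the read counter are not given in the sources used here. The rows of 24015 genes carry symbols, of which 5501 were at 0 in every library.

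Differences were tested with limma 3.58.1 (trend and robust, R 4.3.3) on log2(normalized count + 1), which understates changes of low genes, for genes that reached 10 normalized counts in 3 or more libraries. P-values were adjusted by Benjamini-Hochberg over all genes tested, with a threshold of 0.05. The 31 untreated libraries were fitted together (23 residual degrees of freedom), the 10 libraries of the PLX5622 arm alone (8), and all 41 (31) where the Control arm met untreated mice. Alternatives were edgeR 4.0.16 (quasi-likelihood, on recovered reads), other scalings, pseudocount 10, no filter, fits limited to the groups compared, a replicate block and leaving out libraries.

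The 8 genes, the lists and the tests were chosen with earlier results of these data known. Up to 3 genes a list, direction and comparison could be named, by adjusted p; Mex3c was added after its values were seen, and some genes the rule would name are not reported here. Level per length used merged exons of the GRCm38 annotation, without coordinates. Letters pair WT and NPC libraries of 1 week by the correlation of their deviations (0.107 to 0.158 in 4 of 4 pairs). That correlation was over 0.1 in 1 of 4 pairs at 3 weeks, 0 of 4 at 6 weeks and 0 of 3 at 9 weeks. NPC libraries most like the WT library of their own letter were 2 of 4 at 3 weeks, 0 of 4 at 6 weeks and 2 of 3 at 9 weeks. For PLX5622 and Control libraries of the same number the correlation was -0.114 to 0.213, over 0.1 in 3 of 5 pairs. In that arm 4 of 5 PLX5622 libraries were most like the Control library of their own number. The main tests used no pairing. No libraries of a group agreed within sampling noise, the chi-square per gene being 13.4 to 503 times its expectation.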

Additional observations from a re-analysis of the deposited data

Results flagged for a closer look

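Within groups of 4 or 5 libraries, 5 of 72 groups of values held a library far from the others by Dixon's test, of which chance flags about 1 in 20. NPC 3w replicate C held 95233 normalized counts of Tgfbr1, far above the other libraries of its group, which held 44722 to 47941. WT 6w replicate D held 28612 normalized counts of Tgfbr2, above the 23921 to 24533 of its group. Smad3 was low in WT 3w replicate D, at 2504 normalized counts, with 3424 to 3590 in the others. Smad4 was low in WT 6w replicate B, at 1232 normalized counts, with 4443 to 4952 in the others, and in Control replicate 2, at 1829, with 3220 to 3696 in the others.

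Another gene was low in the same libraries as Smad4. Mex3c, which encodes an RNA-binding protein and was singled out after its values were seen, held 978 normalized counts in Control replicate 2, 507 in WT 1w replicate B, 1059 in WT 6w replicate B and 972 in WT 9w replicate B. Smad4 held 1829, 926, 1232 and 1984 normalized counts in the same 4 libraries. Mex3c was also low in NPC 6w replicate C, at 743 normalized counts, where Smad4 held 2206. What these libraries share was not tested.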

How the results depend on the processing

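The counts of the 8 genes called changed as follows. At 3 weeks, 0 were called in a fit limited to the groups compared. At 6 weeks, 0 were called without the filter, with quantile normalization, or without the astrocyte-rich NPC 6w replicates B and C. At 9 weeks, 0 were called with the replicate block, where the adjusted p was 0.0749 for Tgfb1, 0.0817 for Smad3 and 0.0597 for Smad7. Whether letters pair the libraries of that age is uncertain. Their correlation was -0.007 to 0.076, and 2 of 3 NPC libraries were most like the WT library of their own letter. For NPC mice, 3 weeks against 1 week, 2 were called after rescaling to the same total and 3 in the limited fit. For the Control arm against WT, 0 were called without the filter and 1 with quantile normalization. Leaving out each library gave 1 to 3 at 3 weeks, 0 to 1 at 6 weeks, 0 to 4 at 9 weeks, 7 to 8 for WT and 3 to 6 for NPC at 3 weeks against 1 week, 0 to 1 for the difference in that change, and 0 to 3 for the Control arm against WT. The block also left an adjusted p of 0.0534 for the change of Dab2 between 3 and 9 weeks, and of 0.0699 for Bmp6 and 0.141 for Bmp1 at 9 weeks. It gave 416 genes for PLX5622 over all genes tested, with 0 of the 8 among them.

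Over all genes tested, counts moved by more than 1.5 times in these settings. A fit limited to the groups gave 769 at 3 weeks, 4429 at 9 weeks, 222 for WT and 20 for NPC at 9 against 3 weeks, 1459 for NPC at 3 weeks against 1 week, 81 for the change in genotype effect from 1 to 3 weeks and 17 from 3 to 9 weeks. That last count was 103 with pseudocount 10, 100 with quantile normalization, 8 with the replicate block and 42 without the 3 WT libraries low in Smad4. Without the filter PLX5622 gave 79 and the Control arm against untreated NPC mice 12. Leaving out NPC 6w replicates B and C gave 872 at 6 weeks, and leaving out the 3 WT libraries gave 111 at 1 week, 29 for WT at 9 against 3 weeks and 89 for the change from 1 to 3 weeks. Leaving out each library gave 87 to 453 at 1 week, 2057 to 5200 at 3 weeks, 1524 to 3277 at 6 weeks, 1641 to 3752 at 9 weeks, 18 to 181 for WT and 151 to 1203 for NPC at 9 against 3 weeks, 62 to 420 and 24 to 103 for the changes in genotype effect, 21 to 465 for PLX5622 and 0 to 7 for the Control arm against untreated NPC mice. The causes were not tested. With at least 716 reads for each of the 8 genes in a library, counting error was small beside the spread between mice for these genes. Whether depth or the number of mice limits the counts over all genes was not tested. No paired analysis was possible for the Control arm against untreated mice because its replicates carry numbers and theirs letters.

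Rescaling to the same total moved the median of all genes by −0.135 at 3 weeks, −0.102 for WT and −0.205 for NPC at 3 weeks against 1 week, and 0.105 for NPC at 9 against 3 weeks. Quantile normalization moved it by 0.103 for NPC at 3 weeks against 1 week, −0.139 for NPC at 9 against 3 weeks and −0.114 for the change in genotype effect from 3 to 9 weeks. The share of higher genes among those called moved with the same total from 53.1% to 38.1% at 3 weeks, 59.1% to 48.8% at 9 weeks, 46.0% to 32.4% for WT and 48.7% to 24.8% for NPC at 3 weeks against 1 week, 47.8% to 68.9% for WT and 52.3% to 66.3% for NPC at 9 against 3 weeks, and 52.7% to 42.2% for the Control arm against WT. With quantile normalization it moved from 57.8% to 46.0% for the change in genotype effect from 3 to 9 weeks.

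Small log2 differences that had passed no threshold changed sign. Rescaling to the same total gave Skil −0.031 at 1 week, Smad4 −0.042 at 9 weeks, Tgfb1 0.027 for WT at 9 against 3 weeks and −0.095 for NPC at 3 weeks against 1 week, Smad3 0.107 and Skil 0.013 for NPC at 9 against 3 weeks, and Smad7 0.003 and Skil 0.018 for the change in genotype effect from 3 to 9 weeks. Quantile normalization gave Skil −0.027 at 1 week, Tgfb1 0.033 and Skil 0.002 for WT and Skil 0.011 for NPC at 9 against 3 weeks, and Tgfbr1 0.164 and Skil 0.009 for that change. EdgeR gave Skil −0.015 at 1 week, Smad4 −0.011 at 9 weeks and −0.005 for PLX5622. The replicate block gave Smad7 0.019 for the change from 3 to 9 weeks and Smad3 0.063 for NPC at 9 against 3 weeks. Without NPC 6w replicates B and C, Smad4 was at 0.198, Smad7 at 0.229 and Skil at 0.007 at 6 weeks. Without the 3 WT libraries, Skil was at −0.037 at 1 week, Smad4 at −0.164 at 9 weeks, Tgfb1 at 0.035 for WT at 9 against 3 weeks and Skil at 0.012 for the change from 3 to 9 weeks; Smad4 passed the threshold at 6 weeks (−0.56, adjusted p = 0.0262).

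Leaving out single libraries gave ranges across 0. At 1 week these were −0.213 to 0.031 for Tgfbr1, −0.154 to 0.123 for Skil and −0.147 to 0.099 for Smad7. They were −0.058 to 0.041 for Smad2 at 3 weeks, and for Smad4 −0.56 to 0.109 at 6 weeks and −0.164 to 0.176 at 9 weeks. At 9 against 3 weeks they were −0.129 to 0.035 for Tgfb1, −0.095 to 0.049 for Tgfbr2 and −0.146 to 0.087 for Skil in WT mice, and −0.264 to 0.109 for Smad3, −0.254 to 0.034 for Skil, −0.275 to 0.031 for Tgfb1 and −0.225 to 0.001 for Smad4 in NPC mice. For the change in genotype effect from 3 to 9 weeks they were −0.249 to 0.058 for Tgfb1, −0.167 to 0.115 for Smad7, −0.196 to 0.092 for Skil, −0.299 to 0.104 for Tgfbr1 and −0.196 to 0.189 for Smad3. For PLX5622 they were −0.138 to 0.116 for Smad4 and −0.019 to 0.156 for Smad7, for the Control arm against WT −0.222 to 0.17 for Smad4, and against untreated NPC mice −0.048 to 0.258 for Tgfb1, −0.12 to 0.169 for Skil and −0.172 to 0.124 for Smad4.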
